A study of Mus musculus with 8 samples.

Results

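The genes described here are 36 genes of endothelial cells, the cells that line blood and lymph vessels, measured in RNA from mouse long bone. They were chosen by symbol, and each of the 36 matched 1 row of the 55421 genes in the deposited table. Of these, 21 are shared by most endothelial cells, 8 mark the sinusoids (the wide, thin-walled vessels of marrow) or veins, 6 mark arteries, arterioles and capillaries, and Prox1 marks lymphatic endothelium. The groups compared were bones of 4 mice given 1 intraperitoneal injection of doxorubicin (labelled DoxoR, 10 mg/kg, a chemotherapy drug that damages DNA), and bones of 4 mice given saline vehicle (labelled CTRL). All 8 were wild-type C57BL/6 males aged 15 weeks when assigned to a group, and bones were taken 30 days after the injection. Each library holds the pooled tibiae and femurs of 1 mouse, with soft tissue cleaned off, both ends cut off and marrow spun out, so it covers the shaft and whatever marrow, muscle and vessel stayed on it. The study used the drug as a model of senescence brought on by chemotherapy, and the comparison asks here whether RNA of vessel cells differed in the treated bones.

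Bone is fed by arteries that branch into capillaries, and these empty into sinusoids that drain the marrow. Endothelial cells are held together by VE-cadherin (Cdh5) and tight junctions. They are regulated through VEGF receptors (Kdr, Flt1 and Flt4) and the angiopoietin receptor Tek with its partner Tie1. Transcription factors of the ETS (Erg) and SOX (Sox7, Sox17 and Sox18) families act in them. Capillaries with much endomucin (Emcn) and CD31 (Pecam1) near bone surfaces are known to accompany bone-forming cells, while sinusoids carry VEGF receptor 3 (Flt4) and the stabilin scavenger receptors.

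RefSeq promoters (250 bases before to 50 after a transcription start, build GRCm38.p6) were at hand for 19 of the 36 genes. The 3 shown are those of a shared gene and of 2 sinusoidal genes whose levels over the 8 libraries followed different patterns, described further on. Capitals mark the letters AGGAAG, a form of the site bound by ETS factors, read on either strand (CTTCCT on the other). Other forms of that site are not marked.
Tie1 (chr4:118489800-118490099, minus strand): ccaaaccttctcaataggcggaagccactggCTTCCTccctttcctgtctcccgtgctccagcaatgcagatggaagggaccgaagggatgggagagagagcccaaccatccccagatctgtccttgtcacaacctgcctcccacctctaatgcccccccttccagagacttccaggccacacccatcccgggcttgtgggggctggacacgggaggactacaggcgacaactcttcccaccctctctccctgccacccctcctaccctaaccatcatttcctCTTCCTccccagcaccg
Emcn (chr3:137340828-137341127, plus strand): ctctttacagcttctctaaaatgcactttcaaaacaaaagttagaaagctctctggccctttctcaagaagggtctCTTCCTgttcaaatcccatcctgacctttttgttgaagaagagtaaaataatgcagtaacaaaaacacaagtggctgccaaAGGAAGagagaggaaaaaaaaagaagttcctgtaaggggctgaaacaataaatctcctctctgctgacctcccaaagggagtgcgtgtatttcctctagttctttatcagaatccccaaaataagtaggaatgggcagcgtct
Stab2 (chr10:87007893-87008192, minus strand): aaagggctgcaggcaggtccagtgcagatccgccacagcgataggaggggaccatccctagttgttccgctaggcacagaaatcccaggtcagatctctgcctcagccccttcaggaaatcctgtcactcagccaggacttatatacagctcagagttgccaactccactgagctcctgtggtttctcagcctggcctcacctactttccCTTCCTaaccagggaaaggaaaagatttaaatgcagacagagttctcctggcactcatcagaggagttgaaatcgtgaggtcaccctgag
AGGAAG was found in the promoters of 12 of the 19 genes and in 35.4% of all 32851 promoters in the table. The longer motif AACAGGAA, in which a forkhead site meets an ETS site, was found in 2 of 19 (Egfl7 and Emcn) and in 2.65% of all promoters, and in Emcn it overlaps the first marked site. The SOX core AACAAT was found in 3 of 19 (Tek, Erg and Emcn) and in 10.7% of all promoters. Both were searched on both strands. A member gene counted as a match if any of its promoters held the motif, whereas the percentages count single promoters, so the units differ. These matches describe the letters of each window and do not show that a factor is bound there.

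The libraries held between 23699525 and 35747083 counts, and 17035 genes passed the filter on low counts, all 36 endothelial genes among them. Counts of single members ran from 27 in the lowest library of Prox1 and Apln to 2778 in the highest library of Ptprb. The defining genes Pecam1 and Cdh5 were present in every library with at least 1258 and 594 counts, so vessel cells were represented in all of them. Marker genes of some other tissues summed to far higher levels than the endothelial genes (CPM is a gene's count as a share of its library's, after TMM scaling). The 12 neutrophil genes summed to between 11073 and 22898 CPM in doxorubicin and between 13609 and 23892 CPM in vehicle libraries. The 13 skeletal muscle genes summed to between 15424 and 38217 CPM in doxorubicin and between 5188 and 28024 CPM in vehicle libraries. Such sums depend on the genes in a list and do not measure a tissue's share of the RNA. The 12 genes of bone-forming cells and osteocytes summed to between 4833 and 17450.1 CPM in doxorubicin and between 5364 and 12568 CPM in vehicle libraries. Vehicle 3 stood apart with the least muscle RNA of the 8. Doxorubicin 2 had the highest sum of the bone-forming genes, at 17450.1 CPM, with doxorubicin 1 at 13732 CPM and vehicle 1 at 12568 CPM. In bulk RNA, fewer cells of a type and less RNA per cell cannot be told apart.

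Per length of exon, the highest level among the members was that of S1pr1, the receptor for sphingosine 1-phosphate that lymphocytes also carry, at 15.6 ± 5.30 CPM per kilobase in doxorubicin and 17.2 ± 4.66 CPM per kilobase in vehicle bones (mean ± SD, n = 4 each). Plvap, which forms the diaphragms of fenestrated vessels and sinusoids, followed at 12.4 ± 4.09 CPM per kilobase in doxorubicin and 11.5 ± 3.56 CPM per kilobase in vehicle bones. Pecam1, an adhesion molecule of endothelial junctions that platelets and white cells share, stood at 10.0 ± 0.986 CPM per kilobase in doxorubicin and 9.37 ± 0.841 CPM per kilobase in vehicle bones. Neighbours in this order overlapped within their SDs in both groups as far down as Apln, with the one exception of Ramp2 and Sele in vehicle bones. In the middle of the order stood Erg at 6.53 ± 0.419 CPM per kilobase in doxorubicin and 6.596 ± 0.432 CPM per kilobase in vehicle bones and Emcn at 3.74 ± 0.554 CPM per kilobase in doxorubicin and 3.46 ± 0.367 CPM per kilobase in vehicle bones. At the low end, Apln, which encodes the peptide apelin, stood at 0.566 ± 0.126 CPM per kilobase in doxorubicin and 0.433 ± 0.139 CPM per kilobase in vehicle bones. Prox1, the transcription factor of lymphatic identity, was the lowest at 0.146 ± 0.0424 CPM per kilobase in doxorubicin and 0.149 ± 0.0579 CPM per kilobase in vehicle bones, below the next member by more than the SDs of either group.

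**Figure D1:**
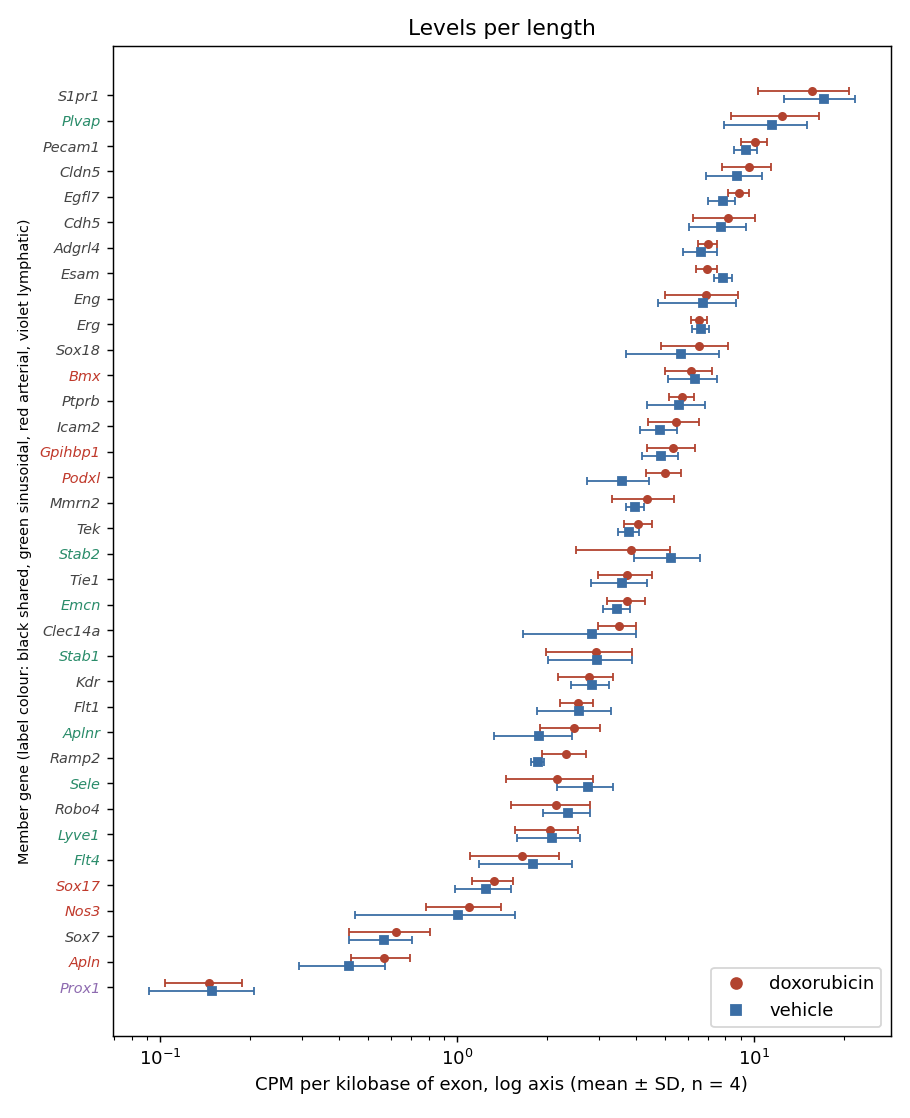
Level of each of the 36 genes in CPM per kilobase of exon on a log axis, as mean ± SD of 4 doxorubicin (red circles) and 4 vehicle (blue squares) libraries, ordered by the doxorubicin mean. S1pr1 and Plvap head the order, Prox1 closes it, and the bars of the groups overlap for nearly every gene.

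None of the 36 endothelial genes passed the test between doxorubicin and vehicle bones. In edgeR's quasi-likelihood test, 0 of 36 had an adjusted p under 0.05 (0.00% of the 17035 tested genes did), with adjusted p between 0.856 and 0.996. DESeq2 also called 0 of 36 (0.170% of tested genes), as did limma-voom (0.00%). At an unadjusted p under 0.05 there was 1 of 36, Podxl, against 5.36% of tested genes (2.13% higher and 3.23% lower). The doxorubicin and vehicle libraries were without overlap in 0 of 36, against 3.59% of tested genes. The log2 fold changes, doxorubicin over vehicle, ran from −0.45 for Stab2 to 0.48 for Podxl, with 23 above 0 and 13 below, and their median was 0.087. Over all tested genes 57.2% lay above 0 and the median was 0.036.

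The intervals give what these 4 mice a group could show. For 34 of the 36 genes the 95% interval of the difference, taken gene by gene and not adjusted, lay within 2-fold in either direction, as it did for 81.8% of all tested genes. For 21 of the 36 it lay within 1.5-fold, and the share of all tested genes at that width was not computed. The exceptions at 2-fold were Stab2, whose interval reached down to −1.02, and Apln, whose interval reached up to 1.03 on the log2 scale. A missed threshold does not show that the groups were alike.

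**Figure D2:**
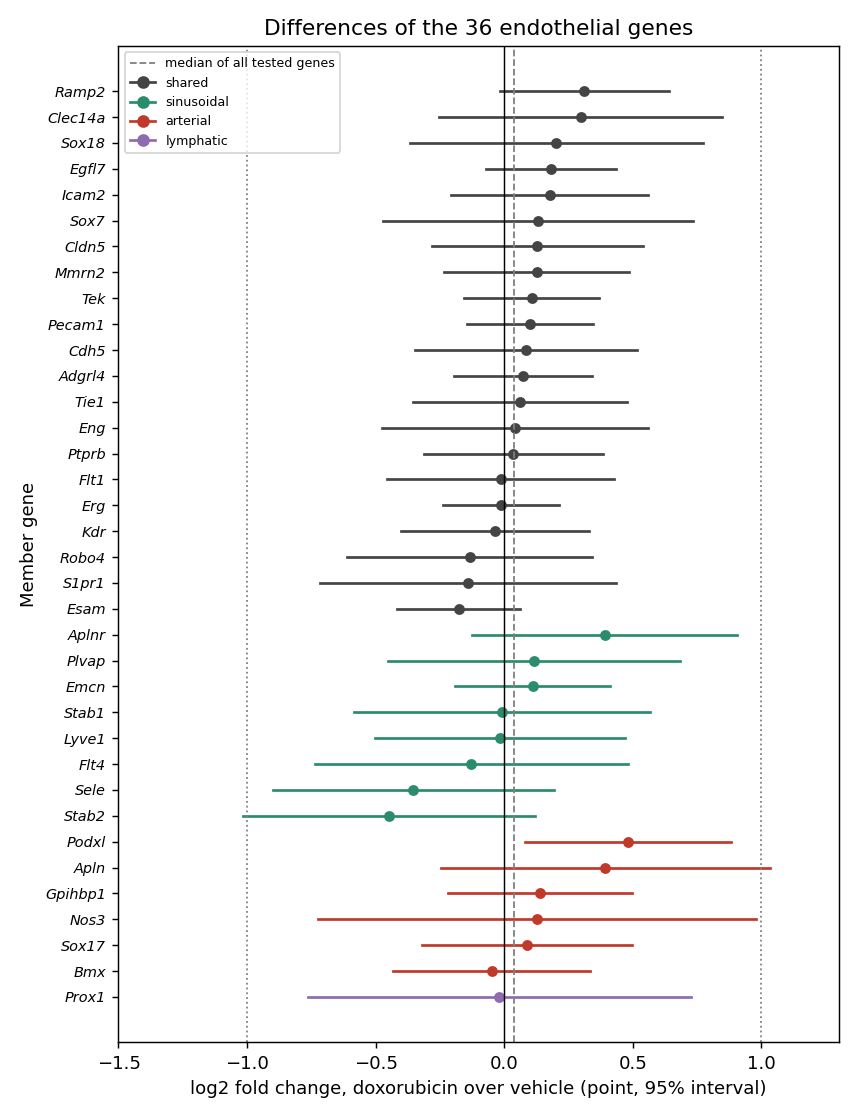
Log2 fold change of each gene, doxorubicin over vehicle, with its 95% interval from edgeR, coloured by shared, sinusoidal, arterial and lymphatic genes; dotted lines mark 2-fold, and the dashed line the median of all tested genes at 0.036. Only the interval of Podxl lies wholly on one side of 0, and those of Stab2 and Apln cross a 2-fold line.

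Of the 21 shared genes, 15 lay above and 6 below 0, with 0 past the threshold and a median log2 fold change of 0.086. Pecam1 measured 61.1, 71.6, 59.3 and 58.2 CPM in doxorubicin 1 to 4, against 65.6, 58.7, 53.8 and 55.4 CPM in vehicle 1 to 4. Its log2 difference was 0.10 ± 0.11 (SE), with a 95% interval of −0.14 to 0.34 and an adjusted p of 0.873, and the groups overlapped. Cdh5, the cadherin that joins endothelial cells, measured 30.6, 46.4, 29.1 and 31.3 CPM in doxorubicin 1 to 4, against 35.9, 27.7, 25.5 and 40.4 CPM in vehicle 1 to 4. Doxorubicin 2 and vehicle 4 were the highest of their groups, and the log2 difference was 0.086 ± 0.19 (SE, adjusted p = 0.929). Among the other junction and surface genes, Cldn5 (the claudin of endothelial tight junctions) averaged 13.6 ± 2.59 CPM in doxorubicin and 12.4 ± 2.67 CPM in vehicle bones. Icam2, an adhesion molecule also found on blood cells, averaged 10.4 ± 2.05 CPM in doxorubicin and 9.17 ± 1.31 CPM in vehicle bones, and Clec14a, a C-type lectin of endothelium, 15.97 ± 2.33 CPM in doxorubicin and 13.0 ± 5.34 CPM in vehicle bones (SD, n = 4 each). Vehicle 3 was the highest of the 8 libraries for Clec14a, whose log2 difference was 0.30 ± 0.25 (SE) with all libraries and, with 1 library left out, from 0.17 without vehicle 2 to 0.59 without vehicle 3. For Icam2 that range was 0.071 without doxorubicin 3 to 0.28 without doxorubicin 1. Esam, an adhesion molecule that platelets and blood stem cells also carry, measured 19.1, 22.4, 19.1 and 19.1 CPM in doxorubicin 1 to 4, against 23.8, 23.0, 20.2 and 23.3 CPM in vehicle 1 to 4. All vehicle libraries lay above doxorubicin 1, 3 and 4, and of the vehicle libraries doxorubicin 2 passed only vehicle 3, and the log2 difference was −0.18 ± 0.11 (SE), with an unadjusted p of 0.127 and an adjusted p of 0.856 in edgeR. With 1 library left out it ran from −0.27 without doxorubicin 2 to −0.15 without vehicle 1. The sign of the differences of Pecam1, Cdh5 and Cldn5 turned when 1 library was left out.

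Among the receptors, Kdr, VEGF receptor 2 and the main signalling receptor of the family, measured 20.1, 32.4, 23.7 and 23.8 CPM in doxorubicin 1 to 4, against 24.9, 21.1, 26.3 and 30.2 CPM in vehicle 1 to 4. The highest library was again doxorubicin 2 and the lowest doxorubicin 1, so the groups overlapped, at a log2 difference of −0.036 ± 0.16 (SE) and a 95% interval of −0.40 to 0.33. Flt1, VEGF receptor 1, which binds the ligand without much signalling, averaged 34.4 ± 4.39 CPM in doxorubicin and 34.8 ± 9.76 CPM in vehicle bones (SD, n = 4 each). Tek, the angiopoietin receptor Tie2, averaged 19.2 ± 2.10 CPM in doxorubicin and 17.9 ± 1.43 CPM in vehicle bones (SD, n = 4 each). Its partner Tie1, whose promoter is shown above, measured 15.2, 23.9, 17.2 and 17.3 CPM in doxorubicin 1 to 4, against 19.9, 14.3, 14.7 and 21.8 CPM in vehicle 1 to 4. Here too doxorubicin 2 and vehicle 4 were the highest, and the log2 difference was 0.061 ± 0.19 (SE). Ptprb, the phosphatase VE-PTP that restrains Tek, averaged 76.3 ± 7.52 CPM in doxorubicin and 74.4 ± 16.3 CPM in vehicle bones (SD, n = 4 each), a difference of 0.036 ± 0.16 on the log2 scale (SE). Eng, the co-receptor endoglin of the TGF-beta family, averaged 27.9 ± 7.67 CPM in doxorubicin and 27.1 ± 7.99 CPM in vehicle bones (SD, n = 4 each). Ramp2 (chr11:101246028-101259546, plus strand, GRCm38), which turns the calcitonin-like receptor into a receptor for adrenomedullin, had the smallest p of the shared genes. It measured 8.87, 8.68, 6.62 and 6.43 CPM in doxorubicin 1 to 4, against 6.26, 6.07, 5.81 and 6.52 CPM in vehicle 1 to 4. Doxorubicin 1, 2 and 3 stood above all vehicle libraries, doxorubicin 3 only just, and doxorubicin 4 lay below vehicle 4, and the log2 difference was 0.31 ± 0.15 (SE, unadjusted p = 0.0611, adjusted p = 0.856 in edgeR). Leaving out 1 library gave values from 0.21 without doxorubicin 2 to 0.39 without doxorubicin 4. Of its exon bases, 33.4% overlap Vps25 on the same strand in GENCODE M21, so its reads may be shared. S1pr1 averaged 47.6 ± 16.1 CPM in doxorubicin and 52.5 ± 14.2 CPM in vehicle bones, with doxorubicin 1 and 2 and vehicle 1 above the rest. Robo4, a roundabout receptor that steadies vessels, averaged 11.4 ± 3.41 CPM in doxorubicin and 12.6 ± 2.28 CPM in vehicle bones (SD, n = 4 each), and its log2 difference of −0.13 ± 0.21 (SE) ran from −0.39 without doxorubicin 2 to −0.037 without doxorubicin 3. Adgrl4, an adhesion receptor of endothelium, averaged 32.0 ± 2.34 CPM in doxorubicin and 30.4 ± 3.96 CPM in vehicle bones (SD, n = 4 each). Of these receptors, Ramp2 and Robo4 kept their sign whichever library was left out, and Kdr, Flt1, Tek, Tie1, Ptprb, Eng, S1pr1 and Adgrl4 did not.

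Among the transcription factors, Erg, the ETS factor that keeps endothelial identity, averaged 22.6 ± 1.45 CPM in doxorubicin and 22.9 ± 1.499 CPM in vehicle bones (SD, n = 4 each), with a log2 difference of −0.013 ± 0.10 (SE) and a 95% interval of −0.24 to 0.21. Its highest library was 1.17 times its lowest, the narrowest span of the 36. Sox18, needed for blood and lymph vessels, averaged 10.6 ± 2.71 CPM in doxorubicin and 9.16 ± 3.17 CPM in vehicle bones (SD, n = 4 each), with doxorubicin 2 and vehicle 4 the highest. Its relative Sox7 averaged 2.04 ± 0.626 CPM in doxorubicin and 1.87 ± 0.445 CPM in vehicle bones (SD, n = 4 each). Egfl7, a secreted protein whose gene also holds the microRNA miR-126, measured 28.9, 30.5, 32.9 and 34.8 CPM in doxorubicin 1 to 4, against 30.2, 23.8, 30.0 and 28.0 CPM in vehicle 1 to 4. Doxorubicin 3 and 4 were the highest and vehicle 2 the lowest, at a log2 difference of 0.18 ± 0.11 (SE, adjusted p = 0.856). Without 1 library it lay between 0.10 (without vehicle 2) and 0.22 (without vehicle 1). Other genes overlap 11.2% of the exon bases of Egfl7 in GENCODE M21, among them Gm20532 on the same strand and Agpat2 on the opposite. Mmrn2, a matrix protein that binds Clec14a, averaged 17.3 ± 4.04 CPM in doxorubicin and 15.8 ± 1.14 CPM in vehicle bones (SD, n = 4 each). The differences of Erg, Sox18, Sox7 and Mmrn2 turned sign when 1 library was left out.

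**Figure D3:**
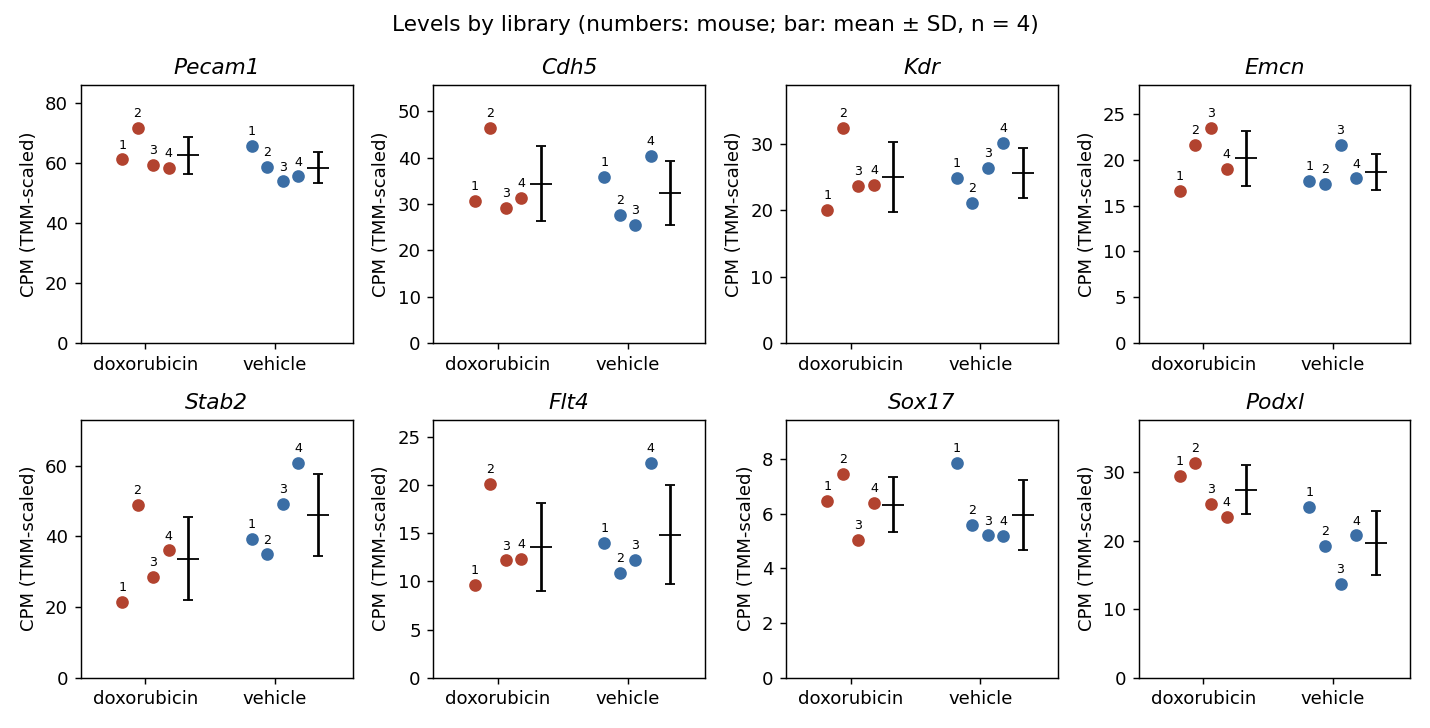
CPM of 8 of the genes in each library, with doxorubicin mice in red on the left, vehicle mice in blue on the right, the mouse number at each point and mean ± SD beside them. Doxorubicin 2 is the highest doxorubicin library in all panels except Emcn, and the groups overlap in every panel, least in Podxl.

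Of the 8 sinusoidal and venous genes, 3 lay above and 5 below 0, with a median log2 fold change of −0.013 and 0 past the threshold. Stab2 (chr10:86841198-87008025, minus strand, GRCm38), a scavenger receptor of sinusoids that clears hyaluronan, had the lowest log2 fold change of all 36. It measured 21.4, 49.0, 28.6 and 36.04 CPM in doxorubicin 1 to 4, against 39.3, 34.9, 49.1 and 60.9 CPM in vehicle 1 to 4. Doxorubicin 1 was the lowest and vehicle 4 the highest, but doxorubicin 2 lay as high as vehicle 3. The log2 difference was −0.45 ± 0.25 (SE), with a 95% interval of −1.02 to 0.12 and an adjusted p of 0.856. With 1 library left out it ran from −0.71 without doxorubicin 2 to −0.30 without doxorubicin 1. Stab1, its relative, which macrophages express as well, averaged 30.1 ± 9.68 CPM in doxorubicin and 30.3 ± 9.45 CPM in vehicle bones (SD, n = 4 each), which is −0.0073 ± 0.26 (SE) on the log2 scale. The 12 macrophage genes, all detected in every library, summed to between 428 and 617 CPM in doxorubicin and between 494 and 789 CPM in vehicle libraries, and Cd163 and Adgre1 among them were at 0 in no library. The part of macrophages in Stab1 and in Lyve1 was not tested.

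Flt4, VEGF receptor 3, present on sinusoids and lymphatics, measured 9.66, 20.1, 12.2 and 12.4 CPM in doxorubicin 1 to 4, against 14.01, 10.9, 12.2 and 22.3 CPM in vehicle 1 to 4. Doxorubicin 2 and vehicle 4 stood well above the other 6 libraries, and the log2 difference was −0.13 ± 0.27 (SE, adjusted p = 0.926). Emcn, the sialomucin endomucin of capillaries and sinusoids, measured 16.7, 21.6, 23.5 and 19.0 CPM in doxorubicin 1 to 4, against 17.8, 17.4, 21.7 and 17.99 CPM in vehicle 1 to 4. It spread little, with doxorubicin 3 and vehicle 3 the highest of their groups, and its log2 difference was 0.11 ± 0.14 (SE), with a 95% interval of −0.19 to 0.41. Leaving out 1 library gave a difference from 0.0094 without doxorubicin 3 to 0.18 without doxorubicin 1. Sele (E-selectin, which catches white cells and progenitors) measured 4.52, 7.99, 4.54 and 8.12 CPM in doxorubicin 1 to 4, against 6.48, 8.96, 10.0 and 6.72 CPM in vehicle 1 to 4. Doxorubicin 1 and 3 were lowest while doxorubicin 2 and 4 lay among the vehicle libraries, at a log2 difference of −0.35 ± 0.24 (SE, adjusted p = 0.856). It was −0.52 without doxorubicin 2 and −0.24 without doxorubicin 3. Aplnr (chr2:85136225-85139923, plus strand, GRCm38), the apelin receptor of veins and sinusoids, lay on the other side of 0 and measured 6.26, 11.3, 9.09 and 9.81 CPM in doxorubicin 1 to 4, against 6.03, 5.599, 6.20 and 9.99 CPM in vehicle 1 to 4. All doxorubicin libraries stood above vehicle 1, 2 and 3, doxorubicin 1 only just, while vehicle 4 lay among them, at a log2 difference of 0.39 ± 0.23 (SE, adjusted p = 0.856). That difference was 0.24 without doxorubicin 2 and 0.59 without vehicle 4. Plvap averaged 24.7 ± 8.13 CPM in doxorubicin and 22.8 ± 7.08 CPM in vehicle bones, and Lyve1, a hyaluronan receptor of lymphatics, some sinusoids and some macrophages, 6.00 ± 1.44 CPM in doxorubicin and 6.08 ± 1.46 CPM in vehicle bones (SD, n = 4 each). The differences of Stab1, Flt4, Plvap and Lyve1 turned sign when 1 library was left out.

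Of the 6 arterial and capillary genes, 5 lay above and 1 below 0, with a median log2 fold change of 0.13 and 0 past the threshold. Podxl (chr6:31519488-31563981, minus strand, GRCm38), the sialomucin podocalyxin on the inner face of vessels, had the smallest p of the 36. It measured 29.4, 31.4, 25.4 and 23.5 CPM in doxorubicin 1 to 4, against 25.0, 19.2, 13.7 and 20.8 CPM in vehicle 1 to 4. Only vehicle 1 reached the range of the doxorubicin libraries, and vehicle 3, the library with the least muscle RNA, was the lowest. The log2 difference was 0.48 ± 0.18 (SE), with a 95% interval of 0.082 to 0.88, an unadjusted p of 0.0230 and an adjusted p of 0.856 in edgeR and 0.748 in DESeq2. It was 0.30 when vehicle 3 was left out and 0.62 when vehicle 1 was, and with the muscle genes as a covariate 0.40.

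Apln, the ligand of Aplnr made by sprouting and arterial cells, measured 2.31, 1.80, 1.68 and 1.35 CPM in doxorubicin 1 to 4, against 1.69, 1.26, 0.787 and 1.72 CPM in vehicle 1 to 4. Doxorubicin 1 was the highest and vehicle 3 the lowest, with the rest mixed, at a log2 difference of 0.39 ± 0.29 (SE, adjusted p = 0.856), which ran from 0.15 without vehicle 3 to 0.52 without vehicle 1. Gpihbp1, which holds lipoprotein lipase on capillaries, measured 16.5, 14.5, 10.6 and 13.0 CPM in doxorubicin 1 to 4, against 14.6, 12.8, 10.99 and 11.1 CPM in vehicle 1 to 4. Its groups overlapped, at a log2 difference of 0.14 ± 0.16 (SE), which ran from 0.020 without doxorubicin 1 to 0.23 without vehicle 1. Sox17, the SOX factor of arterial endothelium, measured 6.48, 7.45, 5.04 and 6.38 CPM in doxorubicin 1 to 4, against 7.87, 5.599, 5.20 and 5.20 CPM in vehicle 1 to 4. Vehicle 1 was the highest of all 8 and doxorubicin 3 the lowest, at a log2 difference of 0.088 ± 0.18 (SE), with 16.9% of its exon bases overlapped by a transcript of the opposite strand in GENCODE M21. Nos3, the endothelial nitric oxide synthase, spread the most of all 36, its highest library (vehicle 1) being 4.15 times its lowest (vehicle 3). It averaged 4.52 ± 1.27 CPM in doxorubicin and 4.16 ± 2.30 CPM in vehicle bones (SD, n = 4 each), and 32.3% of its exon bases overlap opposite-strand genes, Atg9b among them. The sources used here do not state whether the counting used strand. Bmx, a kinase of arterial endothelium that white blood cells also express, averaged 18.9 ± 3.37 CPM in doxorubicin and 19.5 ± 3.64 CPM in vehicle bones (SD, n = 4 each). It was lowest in doxorubicin 1 (15.4 CPM) and highest in vehicle 3 (23.1 CPM). The summed neutrophil genes were lowest and highest in the same libraries, at 11073 and 23892 CPM. The part of white blood cells in Bmx, and so in sums of the arterial genes, was not tested. Prox1 measured 1.57, 0.811, 1.05 and 1.48 CPM in doxorubicin 1 to 4, against 1.35, 1.87, 0.711 and 1.08 CPM in vehicle 1 to 4. At 27 to 40 counts a library its log2 difference of −0.019 ± 0.33 (SE) had a 95% interval of −0.76 to 0.73. The differences of Sox17, Nos3, Bmx and Prox1 turned sign when 1 library was left out.

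Several members shared a pattern over single mice that cut across the groups. Doxorubicin 2 was the highest of the 8 libraries for 15 of the 36 genes and the lowest for 0, while over all tested genes it was the highest for 9.46% and the lowest for 5.92%. Vehicle 3 was the lowest for 10 of the 36 (18.7% of tested genes). For 10 of the 36 the 2 highest libraries were doxorubicin 2 and vehicle 4, as they were for 6.29% of tested genes. These 10 were Cdh5, Kdr, Tie1, Eng, Robo4 and Sox18 of the shared genes, and Stab1, Flt4, Plvap and Aplnr of the sinusoidal ones, with no arterial gene among them. These counts were chosen after the values were seen. Of the 10, 6 had a promoter in the table and 4 of those held AGGAAG, against 8 of 13 of the other members.

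**Figure D4:**
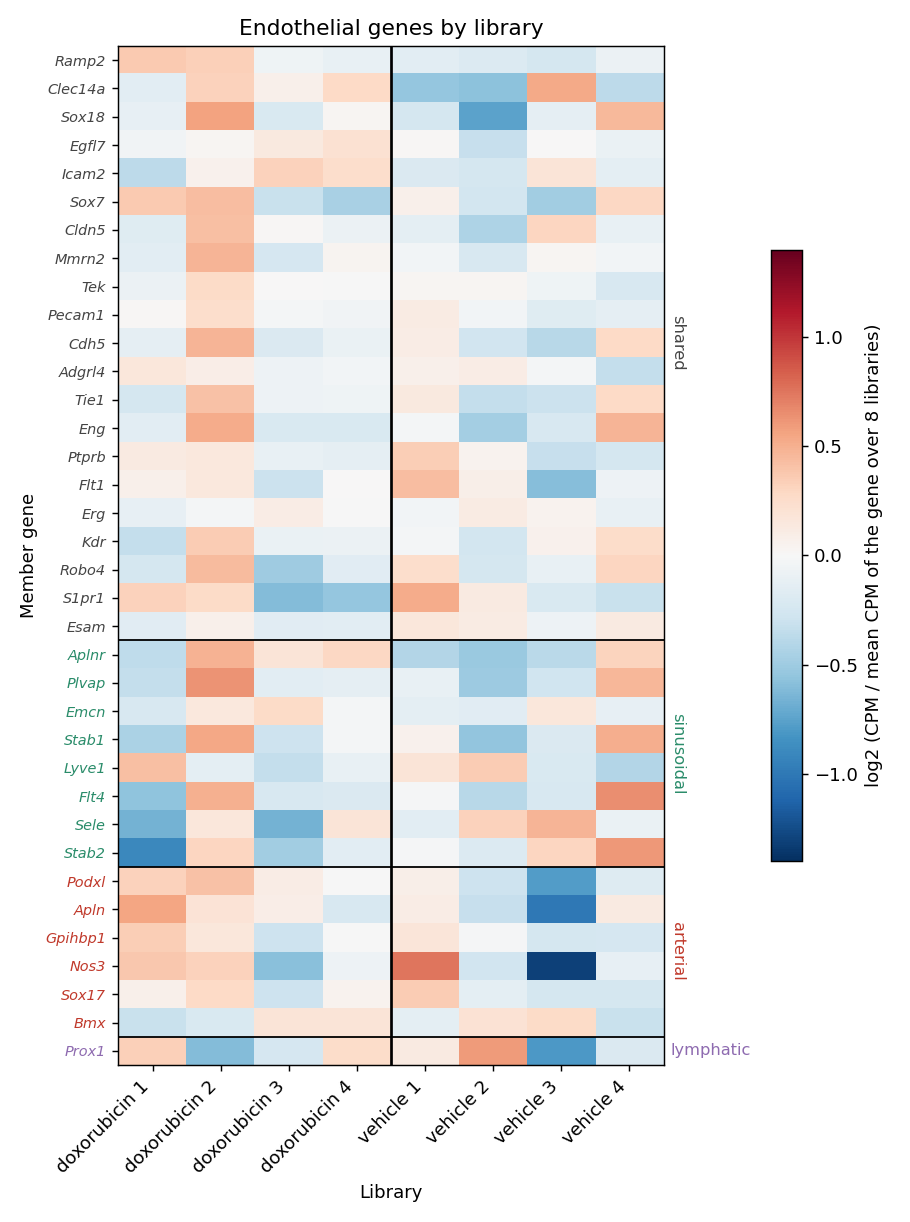
Log2 of each gene's CPM over its mean in the 8 libraries (red above, blue below), with doxorubicin libraries left of the thick line, vehicle libraries right of it, and genes grouped and ordered by log2 fold change. The columns of doxorubicin 2 and vehicle 4 are red for most sinusoidal genes and for Cdh5, Tie1, Eng and Sox18, while that of vehicle 3 is deep blue for Podxl, Apln and Nos3.

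The balance of the shared genes, 15 above and 6 below 0, rested on single libraries. Without doxorubicin 2, 5 of the 21 lay above 0 and 16 below, with a median of −0.041; without vehicle 3, 10 lay above and 11 below, with a median of −0.030. The median of the sinusoidal genes was −0.22 without doxorubicin 2 and 0.089 without vehicle 4. That of the arterial genes was 0.38 without vehicle 1 and 0.025 without vehicle 3. In summed level, the 21 shared genes came to 532, 637, 489 and 505 CPM in doxorubicin 1 to 4, against 592, 500.2, 485 and 521 CPM in vehicle 1 to 4. The 8 sinusoidal genes summed to 108, 196, 129 and 142 CPM in doxorubicin 1 to 4, against 144, 123, 150.2 and 198 CPM in vehicle 1 to 4. The 6 arterial genes summed to 75.8, 77.0, 67.3 and 70.2 CPM in doxorubicin 1 to 4, against 73.9, 64.6, 55.6 and 58.3 CPM in vehicle 1 to 4, where vehicle 3 and 4 were lowest.

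Around these genes, the ligands and pathways that act on vessels were read from lists of other genes. Of 17 vessel growth factors and their co-receptors in the table, 14 were tested, 9 above and 5 below 0, with a median of 0.12 and 0 past the threshold. Without doxorubicin 2, 5 lay above and 9 below (median −0.017), while 7 lay on each side without doxorubicin 1, without vehicle 2 or without vehicle 3 (median for vehicle 3 −0.0062). Angpt1, the only one at an unadjusted p under 0.05, is the activating ligand of Tek, which stem cells, megakaryocytes and stromal cells of marrow make. It measured 63.3, 72.0, 48.4 and 61.8 CPM in doxorubicin 1 to 4, against 71.2, 103, 125 and 74.5 CPM in vehicle 1 to 4. Only vehicle 1 fell within the range of the doxorubicin libraries, at a log2 difference of −0.61 ± 0.20 (SE, unadjusted p = 0.0114, adjusted p = 0.840 in edgeR and 0.368 in DESeq2). Slit3, a guidance protein and angiogenic factor that osteoblasts make, averaged 17.4 ± 6.08 CPM in doxorubicin and 12.01 ± 4.37 CPM in vehicle bones, and Pgf, a ligand of Flt1, 5.94 ± 1.11 CPM in doxorubicin and 4.94 ± 0.939 CPM in vehicle bones (SD, n = 4 each). For Slit3, leaving out doxorubicin 2 gave 0.24 on the log2 scale, against 0.53 with all libraries. For Pgf the difference of 0.27 ran from 0.14 without doxorubicin 2 to 0.41 without vehicle 1.

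All 14 genes of the list of Notch signalling, ephrins and arterial connexins lay above 0, with a median log2 fold change of 0.19, against 57.2% of tested genes above 0, and edgeR called 0 of them. Not all are arterial: the venous genes Ephb4 and Nr2f2 are among them, at 0.12 and 0.068. The count above 0 rested on single libraries: without doxorubicin 2, 9 lay above and 5 below 0 (median 0.043), and without vehicle 3, 9 above and 5 below (median 0.050). Hey1, a transcriptional repressor switched on by Notch in arteries and also present in bone-forming cells, measured 8.09, 7.84, 7.87 and 5.82 CPM in doxorubicin 1 to 4, against 4.91, 3.69, 5.08 and 4.15 CPM in vehicle 1 to 4. All doxorubicin libraries were above all vehicle libraries (1.64% of tested genes), and the log2 difference was 0.73 ± 0.16 (SE), with a 95% interval of 0.36 to 1.10. Its adjusted p was 0.703 in edgeR and 0.0491 in DESeq2. Gja5, the connexin Cx40 of arterial endothelium, measured 6.87, 9.37, 8.83 and 8.597 CPM in doxorubicin 1 to 4, against 6.29, 7.23, 7.03 and 5.33 CPM in vehicle 1 to 4. Vehicle 2 and 3 lay above doxorubicin 1 and the rest did not overlap, at a log2 difference of 0.38 ± 0.15 (SE, unadjusted p = 0.0303, adjusted p = 0.856). Heyl, another Notch target, averaged 7.84 ± 3.17 CPM in doxorubicin and 5.17 ± 1.297 CPM in vehicle bones (SD, n = 4 each), with doxorubicin 2 the highest, and its log2 difference of 0.61 was 0.29 without that library.

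Of 31 tested further genes of endothelium, 16 lay above and 15 below 0, and 0 passed in edgeR or DESeq2. Without doxorubicin 2, 10 lay above and 21 below 0, and without vehicle 2, or without vehicle 3, 12 lay above and 19 below. Ly6c1, a surface protein of capillaries and arteries and also of monocytes and other blood cells, averaged 38.5 ± 3.09 CPM in doxorubicin and 24.9 ± 4.88 CPM in vehicle bones (SD, n = 4 each). Its groups did not overlap either, with all doxorubicin libraries the higher (1.64% of tested genes). It had a log2 difference of 0.63 ± 0.14 (SE), an adjusted p of 0.703 in edgeR and 0.100 in DESeq2. Ly6a (Sca-1), on arterial endothelium, blood stem cells and stromal progenitors, averaged 37.3 ± 5.55 CPM in doxorubicin and 25.1 ± 6.34 CPM in vehicle bones, and Cd34, shared by vessels and progenitors, 37.7 ± 5.33 CPM in doxorubicin and 30.2 ± 1.74 CPM in vehicle bones (SD, n = 4 each). Their adjusted p were 0.855 and 0.856 in edgeR. Ly6c1 has a near-identical copy, Ly6c2, so its reads may be divided. Of the 11 mural genes, of the smooth muscle cells and pericytes that wrap vessels, 10 lay above and 1 below 0, with a median of 0.19 and 0 past the threshold. Without doxorubicin 1, doxorubicin 2 or vehicle 3, 7 lay above and 4 below 0. The pericyte genes Cspg4 and Notch3 had log2 differences of 0.40 ± 0.23 and 0.57 ± 0.39 (SE). With 1 library left out, Cspg4 ran from 0.22 without doxorubicin 2 to 0.56 without vehicle 1, and Notch3 from 0.29 without doxorubicin 2 to 1.04 without vehicle 4. Des (desmin), which skeletal muscle also makes, averaged 867 ± 359 CPM in doxorubicin and 626 ± 293 CPM in vehicle bones (SD, n = 4 each), and its log2 difference of 0.47 was 0.13 without vehicle 3.

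Several members are also expressed by blood cells. All 11 megakaryocyte genes lay below 0, with a median of −0.53, against 57.2% of tested genes above 0. The 11 stayed below 0 whichever library was left out. They summed to 841, 1332, 1170.1 and 1135 CPM in doxorubicin 1 to 4, against 1285, 1674, 2016 and 1512 CPM in vehicle 1 to 4. Gp6, the collagen receptor of platelets, averaged 44.9 ± 5.54 CPM in doxorubicin and 75.5 ± 16.7 CPM in vehicle bones, Treml1, a platelet receptor, 29.6 ± 5.44 CPM in doxorubicin and 42.8 ± 3.94 CPM in vehicle bones, and Gp5, of the platelet receptor for von Willebrand factor, 24.3 ± 5.65 CPM in doxorubicin and 35.4 ± 4.40 CPM in vehicle bones (SD, n = 4 each). Their adjusted p were 0.703, 0.817 and 0.841 in edgeR, while DESeq2 gave Gp6 0.0433. In all 3, each doxorubicin library lay below each vehicle library (1.95% of tested genes). Of the members that platelets or their precursors share, Esam was on the same side of 0 and Pecam1 and Icam2 on the other, and the part of megakaryocytes in them was not tested. Of the 12 macrophage genes, 11 lay below 0, but 9 did without doxorubicin 1 or without vehicle 4, and 10 without doxorubicin 4. Cd163, a haemoglobin scavenger receptor, measured 10.8, 17.3, 10.3 and 9.47 CPM in doxorubicin 1 to 4, against 22.5, 19.2, 33.2 and 33.8 CPM in vehicle 1 to 4, each doxorubicin library below each vehicle library (1.95% of tested genes). Its log2 difference was −1.18 ± 0.24 (SE), with an adjusted p of 0.703 in edgeR and 0.00956 in DESeq2. The groups of Adgre1 did not overlap either, with the doxorubicin libraries lower, at a log2 difference of −0.29 ± 0.13 (SE). Marco and Vsig4, scavenger and complement receptors of macrophages, had log2 differences of −2.81 ± 0.92 and −1.39 ± 0.56 (SE), but each rested on 2 vehicle libraries, Marco on vehicle 1 and 3 and Vsig4 on vehicle 3 and 4. The log2 difference of Marco was −2.06 without vehicle 1, and that of Vsig4 −0.84 without vehicle 3.

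For the remaining lists edgeR also called 0 genes, while DESeq2 called 1 adipocyte gene as higher and 1 stem and progenitor gene as lower. The 13 skeletal muscle genes were all above 0 (median 0.38), as were 8 of 10 adipocyte genes (median 0.87) and 10 of 12 genes of bone-forming cells and osteocytes (median 0.29). The 12 erythroid genes were all below 0 (median −0.36), 8 of 12 neutrophil genes were above it (median 0.095), and the 8 stem and progenitor genes were divided evenly. Without vehicle 3, 7 of 13 skeletal muscle genes lay above 0 (median 0.0055), and without doxorubicin 1, 11 of 13 (median 0.090). Without doxorubicin 2, 6 of 12 genes of bone-forming cells and osteocytes did (median −0.046), as did 6 of 12 without doxorubicin 1, and the adipocyte median without doxorubicin 2 was 0.52. Of the neutrophil genes 1 of 12 lay above 0 without doxorubicin 3, and 5 of 12 without doxorubicin 4. Of the erythroid genes 1 of 12 lay above 0 without vehicle 4. Skeletal muscle genes summed to 38217, 18285, 15424 and 35442 CPM in doxorubicin 1 to 4, against 27216, 28024, 5188 and 25374 CPM in vehicle 1 to 4. Vehicle 3, lowest there, was also lowest for 10 of the 36 members (18.7% of tested genes). These were Podxl, Apln and Nos3 of the arterial genes, Pecam1, Cdh5, Flt1, Ramp2, Sox7 and Ptprb of the shared ones, and Prox1. The part of muscle vessels in those genes was not tested beyond the muscle covariate. Bone-forming and osteocyte genes summed to 13732, 17450.1, 5130.4 and 4833 CPM in doxorubicin 1 to 4, against 12568, 5364, 7285 and 8348 CPM in vehicle 1 to 4, with doxorubicin 2, the highest library for 15 members, the highest there too.

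**Figure D5:**
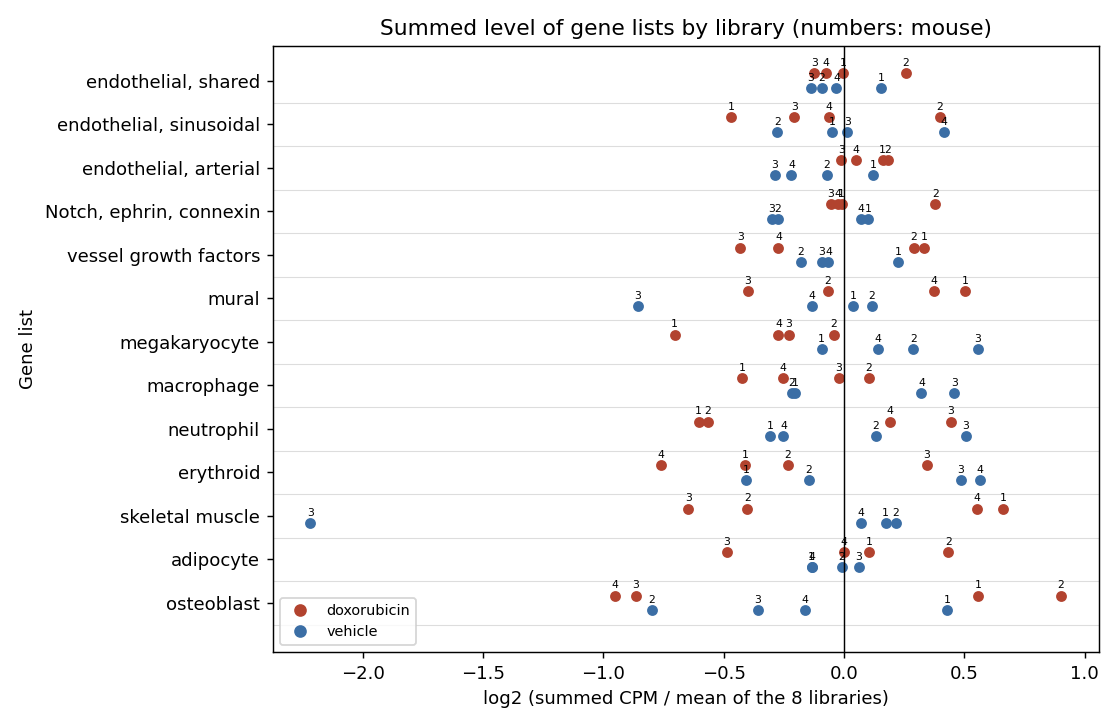
Summed CPM of each gene list in each library as log2 of the ratio to the mean of the 8 libraries, with the mouse number at each point, doxorubicin in red above vehicle in blue. The 3 endothelial lists spread over less than 1 log2 unit with overlapping groups. Vehicle 3 stands far left for skeletal muscle, and doxorubicin 2 lies furthest right for shared endothelial, Notch and osteoblast genes.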

How the data were processed

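Poly-A RNA of 8 bone samples, 1 per mouse, was sequenced from 500 ng of RNA with 15 cycles of PCR, per the labels' protocols. The deposited values are taken as estimated counts per gene that the authors made from mapped reads, per the submitters' processing notes, which name RSEM. All are whole numbers, and none was altered by rounding. STAR 2.5.3a, RSEM 1.3.0 and the human build GRCh38 are listed in the submitters' processing notes, whereas the identifiers are mouse. How strand and molecular identifiers were used: not given in the sources used here. PCR copies may therefore be among the reads. Exon lengths, positions and overlaps came from GENCODE M21 (GRCm38), matched by identifier (55154 of 55421 without the version number), and promoters from RefSeq.

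Genes were filtered with filterByExpr (minimum count 10, minimum total 15), scaled by TMM, and tested with the robust quasi-likelihood method of edgeR (version 4.0.16 in R 4.3.3). Tests were two-sided, and Benjamini-Hochberg adjustment ran over all 17035 tested genes with a threshold of 0.05. SE and 95% intervals were derived from its F statistic. Alternatives were limma-voom (limma 3.58.1), DESeq2 1.42.0, other scalings, filters and covariates, a replicate block, and each library left out. The edgeR script was tested on simulated data. The members and lists were chosen with earlier results of these data known, as was the rule for naming genes: all members, and of each other list the 3 genes of lowest p, not all of them printed for every list. Some further genes of these lists were named besides. Bmp9 is the older name of Gdf2 and had no entry of its own. Apela, Gdf2, Bmp10 and Etv2 did not pass the filter.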

Additional observations from a re-analysis of the deposited data

Results flagged for a closer look

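Of 138 groups of 4 libraries examined, 14 held a library set apart from the other 3. The groups were levels of the members, of genes named under the rule above and of summed lists. The criterion was Dixon's at 95%, on the gap as a share of the group's range. Among independent groups of normally distributed values, chance gives about 5%. These groups share the same 8 libraries, and many of their genes rose and fell together. The count flagged was therefore not tested against that share. Doxorubicin 2 was set apart on the high side for Cdh5 (46.4 CPM against 29.1 to 31.3, gap 0.871 of the range), Eng (39.4 against 23.7 to 24.8, 0.928), Esam (22.4 against 19.1 in the others, 0.983) and Plvap (36.7 against 18.8 to 21.8, 0.830). It was also high for Cd163 (0.832) and for the summed Notch, ephrin and connexin list (167 CPM against 124 to 128, 0.911). In vehicle bones, vehicle 3 was high for Clec14a (20.9 CPM against 9.70 to 11.2, 0.863) and Emcn (21.7 against 17.4 to 17.99, 0.861). It was low for Des (0.889) and for the summed skeletal muscle list (0.884). Vehicle 4 was high for Aplnr (9.99 CPM against 5.599 to 6.20, 0.864) and vehicle 1 for Sox17 (7.87 against 5.20 to 5.599, 0.850). Doxorubicin 4 was low for Hey1 (5.82 CPM against 7.84 to 8.09, 0.890) and doxorubicin 1 for Treml1 (0.876).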

How the results depend on the processing

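Under all 18 alternatives 0 of the 36 endothelial genes passed the threshold, with adjusted p of 0.413 or more. Over all tested genes the count of 0 became 29 in DESeq2 and 1 with no filter on low counts, and stayed at 0 otherwise. The count at an unadjusted p under 0.05, 913, lay between 639 and 1800 with 1 library left out. The replicate number as a block gave 0 calls, with 1466 genes at an unadjusted p under 0.05; same-numbered libraries correlated at 0.34, −0.27, 0.43 and 0.090 in their deviations from the group means, and 2 of the 4 doxorubicin libraries correlated best with their own number, so the numbers were not taken as pairs. Leaving out 1 library, the arterial median ran from 0.025 to 0.38. Of the 36 genes, 13 kept their sign throughout; the cause of the changes in the others was not tested. With 1 library left out, the log2 difference ran from −0.0011 to 0.16 for Pecam1, −0.12 to 0.18 for Cdh5, −0.21 to 0.041 for Kdr, −0.0023 to 0.13 for Tek, −0.12 to 0.15 for Tie1, −0.20 to 0.23 for Eng, −0.039 to 0.24 for Cldn5, −0.21 to 0.16 for Flt1, −0.020 to 0.42 for Sox18, −0.052 to 0.27 for Sox7, −0.078 to 0.0080 for Erg, −0.075 to 0.19 for Mmrn2, −0.093 to 0.18 for Ptprb, −0.32 to 0.048 for S1pr1, −0.043 to 0.11 for Adgrl4, −0.27 to 0.18 for Stab1, −0.41 to 0.11 for Flt4, −0.17 to 0.32 for Plvap, −0.21 to 0.10 for Lyve1, −0.030 to 0.25 for Sox17, −0.17 to 0.016 for Bmx, −0.18 to 0.55 for Nos3 and −0.27 to 0.21 for Prox1. In limma-voom it changed sign to 0.027 for Flt1 and 0.036 for Prox1. With library size as the only scaling it changed sign to −0.019 for Eng and −0.0080 for Ptprb. With the marrow covariate it changed sign to 0.0058 for Erg, −0.026 for Ptprb, −0.0073 for Sox17, 0.00087 for Bmx and −0.061 for Nos3. With the muscle covariate it changed sign to 0.0065 for Kdr, 0.0067 for Erg, −0.025 for Ptprb, 0.019 for Bmx and −0.069 for Nos3. With the replicate block it changed sign to 0.021 for Flt1 and 0.010 for Prox1. Counts were lowest for Prox1 and Apln, at 27 in their lowest library; the parts of counting error and of spread between mice were not separated. The counts of genes above 0 in the other lists with 1 library left out were added after seeing the data.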

Other observations

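The summed level of the 6 arterial genes over that of the 8 sinusoidal genes was 0.705, 0.393, 0.522 and 0.493 in doxorubicin 1 to 4, against 0.513, 0.526, 0.370 and 0.294 in vehicle 1 to 4. It was highest in doxorubicin 1 and lowest in vehicle 4, and the groups overlapped. This ratio was chosen after the values were seen and was not tested. Its arterial sum includes Bmx, which white blood cells also express.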
